A study of Mus musculus with 6 samples.

Results

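Collagens are the proteins with a triple helix that build the extracellular matrix. Each is assembled from 3 chains, which can be alike or differ, and each kind of chain has its own gene. The chains described here are the mouse protein-coding genes whose symbol reads Col, a number, a and a number. GENCODE release M21 holds 44 such genes, and all 44 were among the 38087 gene identifiers of the count tables. They comprise 11 fibrillar chains (types I, II, III, V, XI, XXIV and XXVII), 6 basement membrane chains (type IV) and 27 chains of other types.

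The samples were HL-1 cells, a line from a mouse atrial tumour that was transformed by a viral oncogene and keeps features of heart muscle cells. In 3 libraries the cells had received 100 nM of an siRNA directed at Circ-INSR, a circular RNA made from the insulin receptor gene Insr, and in 3 control libraries a scrambled siRNA. The labels give no time point. They do not say whether the libraries of a group came from separate cultures, and the p-values then measure only how these libraries scatter, which may be technical.

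As background, chains of the main fibrillar types (I, II, III, V and XI) carry a long, uninterrupted helix. They pack into the banded fibres that give tissue its tensile strength, and in heart types I and III from fibroblasts dominate. Type IV chains form a sheet-like network in the basement membrane that surrounds each muscle cell, as 3 kinds of trimer: α1α1α2 in most tissues, α3α4α5 in the kidney filter and a few other places, and α5α5α6 in some epithelia and smooth muscle. The remaining types decorate fibrils, form beaded filaments or anchoring fibrils, or span the cell membrane.

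The coding sequences set the fibrillar chains apart from all others by the length of unbroken helix repeat. From them 3 stretches are given because they come from the chains on which the results below turn. In the helix glycine, whose codons begin with GG, recurs at each turn of a 3-residue repeat. Each line holds 33 codons (99 bases) of the longest annotated coding sequence in GENCODE M21 (GRCm38), with the glycine codons of the repeat in capitals. Codons are counted from 1 at the start codon.
Col1a1, codons 168 to 200: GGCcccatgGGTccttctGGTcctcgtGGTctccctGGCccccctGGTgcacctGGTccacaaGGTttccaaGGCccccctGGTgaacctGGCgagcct
Col4a4, codons 212 to 244: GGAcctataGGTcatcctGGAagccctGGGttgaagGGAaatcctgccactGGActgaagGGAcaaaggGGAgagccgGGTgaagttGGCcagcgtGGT
Col16a1, codons 411 to 443: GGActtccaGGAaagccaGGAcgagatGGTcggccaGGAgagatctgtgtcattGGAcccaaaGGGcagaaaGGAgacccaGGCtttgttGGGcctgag

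In the fibrillar chain Col1a1 the register of glycine codons ran on without a break for 338 triplets. In Col4a4 it was broken by 2 additional codons, after which it resumed. In Col16a1 a triplet of 3 codons lacked the glycine codon, and the repeat went on in the same register. Across the 9 chains of types I, II, III, V and XI the longest unbroken run lay between 337 and 344 triplets. In the fibrillar chains Col24a1 and Col27a1 it was 216 and 217, although all their runs together held 327 and 329 triplets, against 355 in Col1a1. The 6 type IV chains had longest runs of 39 to 66 triplets and between 17 and 24 separate runs of at least 3 triplets each. The 27 chains of other types had longest runs of 23 to 113 triplets and between 2 and 18 separate runs. Median longest runs were 43.5 triplets for type IV and 45 for the other types, so this length did not set type IV apart from them.

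HL-1 cells transcribed mainly type IV collagen. Levels of different genes are compared here as CPM per kb, that is CPM (counts per unit of library size, with edgeR's TMM scaling) divided by the length of all annotated exons of the gene. On that scale the 6 type IV genes took the first 6 ranks of the 44, from Col4a1 with 103.4 to Col4a6 with 25.95 CPM per kb over all libraries. They made up 81.6 ± 0.538% of the summed collagen level in control and 83.6 ± 0.160% after Circ-INSR siRNA (SD, 3 libraries each). The fibrillar chains held 7.65 ± 0.494% and 7.56 ± 0.306%, of which most was Col1a1, and the other types held 10.7 ± 0.0448% and 8.80 ± 0.229%. After the type IV genes came Col1a1 with 21.96, Col12a1 with 15.2, Col18a1 with 8.10 and Col16a1 with 5.45 CPM per kb.

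**Figure D1:**
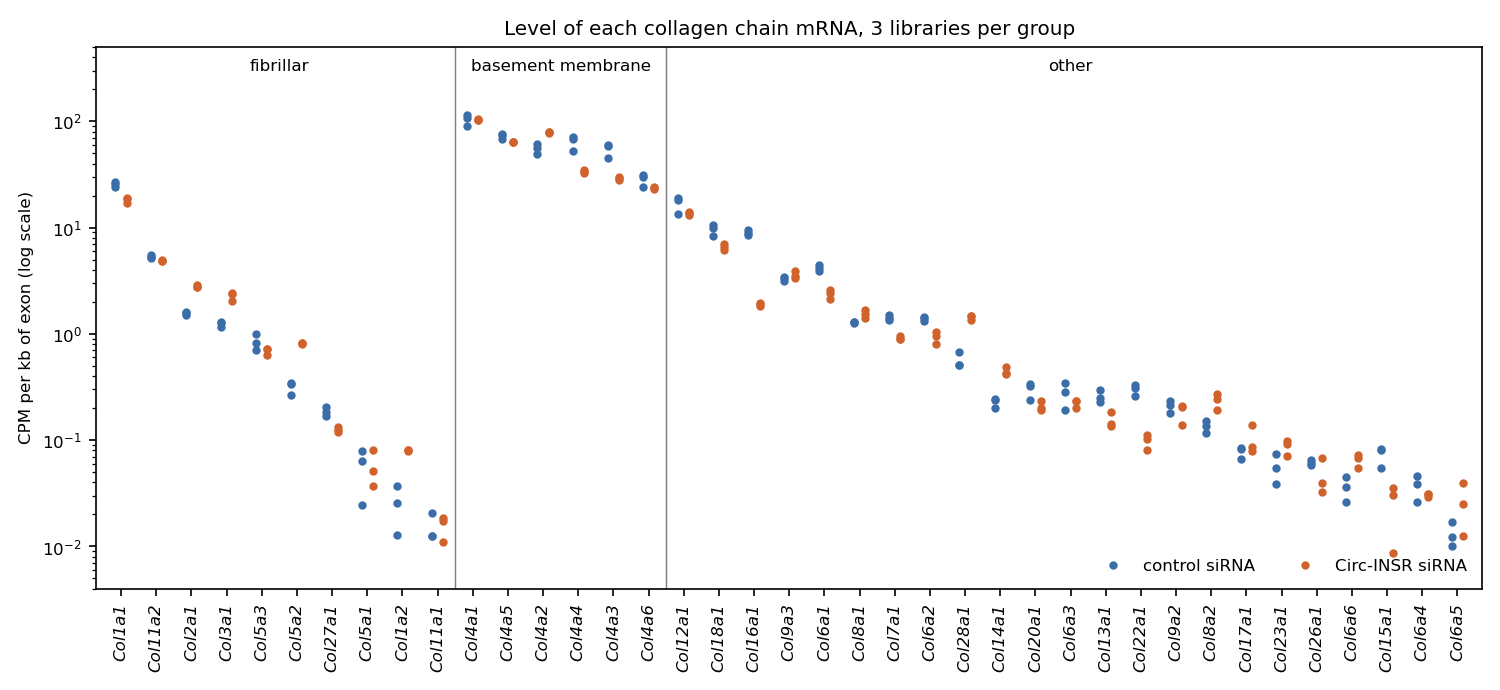
Level of each of the 39 tested collagen chains in each library, as CPM per kb of exon on a log axis, with 3 control siRNA libraries (blue) and 3 Circ-INSR siRNA libraries (orange) per chain. The 6 type IV chains have the highest mean levels, from 25.95 to 103.4 CPM per kb, and Col1a1 follows with 21.96 CPM per kb.

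Total counts per library ran from 60024750 to 77037474, so that 3 counts correspond to between 0.0395 and 0.0496 CPM. Called means an adjusted p under 0.05 in the edgeR test described below, which 57.0% of all genes tested reached, 28.5% higher and 28.5% lower. All 10 markers of atrial heart muscle were detected, with 3 called higher and 4 lower. They summed to 6528 to 6851 CPM in control and 7143 to 7251 CPM after Circ-INSR siRNA, and the lowest, Sln, stayed at or below 1.01 CPM. Of 8 fibroblast markers 7 were below 1 CPM in every library, Tcf21 was at 0 throughout, and the list summed to between 3.92 and 4.74 CPM in control and between 3.94 and 4.62 CPM in Circ-INSR siRNA libraries. The 6 endothelial markers summed to 27.3 to 30.7 CPM in control and 82.8 to 86.8 CPM after Circ-INSR siRNA, nearly all of it Kdr and Tek, while Vwf and Cdh5 were at or below 0.0991 CPM. The 7 smooth muscle and pericyte markers summed to 4011 to 4130 and 6439 to 6670 CPM, mostly Acta2, with 5 called higher and 2, Rgs5 and Cspg4, called lower (log2 fold changes -2.18 and -0.77). The 4 epicardial markers summed to 9.01 to 9.21 and 12.7 to 14.6 CPM, with 3 called higher and Msln called lower (-1.99). The 4 macrophage markers summed to 6.40 to 7.37 and 3.65 to 4.15 CPM, with Cd68 and Csf1r called lower and Adgre1 at 0 throughout. In bulk RNA fewer cells of a type and less RNA per cell cannot be told apart, and the part of these marker levels in the collagen results was not tested.

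Which collagen mRNAs differ when Circ-INSR is targeted was asked with the edgeR quasi-likelihood test across all 16666 genes that passed the filter on low counts. Insr itself, which hosts the circular RNA, had a log2 fold change of -0.43 with an SE of 0.07 (adjusted p = 0.000393, edgeR). The counts are per gene and the RNA was poly(A)-selected, so this value does not measure the level of Circ-INSR. Of the 44 chains 39 could be tested, and at a Benjamini-Hochberg adjusted p under 0.05 there were 10 higher and 15 lower, together 25 (64.1%). Of all genes tested 57.0% were called, 28.5% higher and 28.5% lower, so the pooled share of collagen chains called is near that of genes at large. By direction, 25.6% of the tested chains were higher and 38.5% lower. With at least 1 CPM in 3 libraries, 7 chains were higher and 15 lower of 27, against 4331 and 4411 of 13412 genes. Whether these shares differ was not tested. The libraries of both groups did not overlap for 25 of the 39 chains, against 63.3% of all genes. The median log2 fold change was -0.19 for the 39 chains and -0.0045 for all genes. Among the tested chains, Col11a1, Col6a5 and Col15a1 reached the filter's level in every library of at most 1 group, so their place among the tested ones rests on few reads.

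By class, 4 fibrillar chains rose and 2 fell of 10 tested, 1 type IV chain rose and 4 fell of 6, and 5 of the other chains rose and 9 fell of 23. The median log2 fold change was -0.22 for type IV and -0.31 for the other types. For the fibrillar chains it was 0.03, but -0.01 with total-count scaling, -0.13 over the 7 chains with at least 1 CPM in 3 libraries, and -0.10 without control replicate 3 or without Circ-INSR siRNA replicate 2. Summed over all 44 chains, collagen mRNA stood at 504.2, 479.9 and 406.6 CPM per kb in the control libraries and at 395.3, 396.1 and 398.2 CPM per kb after Circ-INSR siRNA. The groups did not overlap, although control replicate 3 lay much closer to the Circ-INSR siRNA libraries than to the other controls. In an exact two-sided permutation test p was 0.1, the smallest that 3 against 3 libraries can give (0.121 when adjusted over 17 such sums and shares). Type IV chains alone summed to 413.3, 393.2 and 329.4 against 331.2, 330.5 and 333.2 CPM per kb, where control replicate 3 fell below all Circ-INSR siRNA libraries (exact permutation p = 0.4).

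Control replicate 3 was lower than both other controls for 24 of the 39 tested chains, compared with 37.4% of all genes. Collagen genes hold many annotated exonic bases, with a median of 7833 against 3778 for all genes tested. Of the 39 chains 12 are among the 10% of genes with the most exonic bases (at least 9219). These longest genes deviated from their mean over the 6 libraries by a median of -0.13 (log2) in control replicate 3, against 0.03 and 0.04 in control replicates 1 and 2. The part of this difference in single fold changes was not tested by itself, but values without that library or after removal of a trend on length and GC content are given where they change a call.

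**Figure D2:**
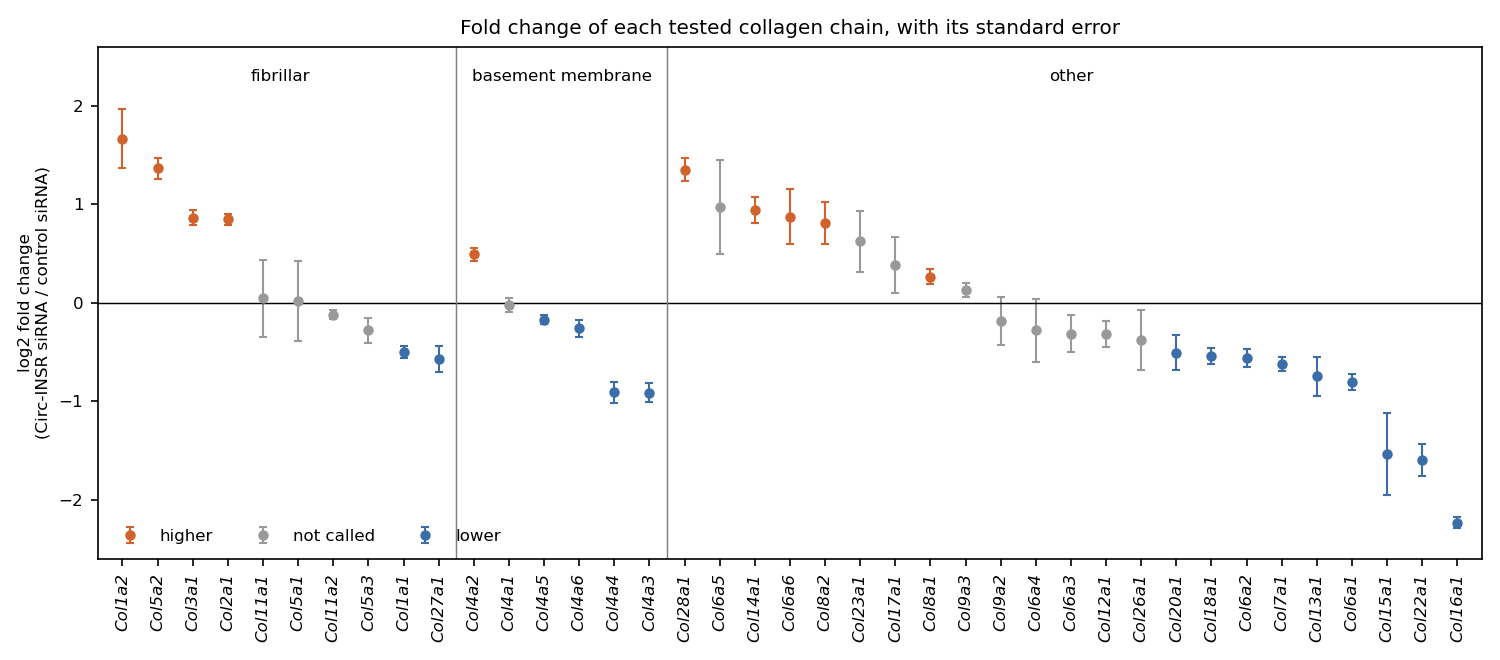
Log2 fold change (Circ-INSR siRNA over control siRNA) of the 39 tested collagen chains by class, with bars of 1 standard error; orange and blue mark chains called higher and lower by edgeR, grey those not called. Col16a1 has the lowest value at -2.23 and Col1a2 the highest at 1.67.

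Of the fibrillar chains, Col1a2, Col5a2, Col3a1 and Col2a1 rose, and Col1a1 and Col27a1 fell. Col1a1, the α1 chain of type I collagen (ENSMUSG00000001506, mm10 chromosome 11, 94936224 to 94953042, plus strand), was by far the most abundant of them. It had 177.5, 170.1 and 158.4 CPM in control and 110.8, 122.6 and 125.1 CPM after Circ-INSR siRNA. All treated libraries were below all controls, a log2 fold change of -0.50 with an SE of 0.06 (adjusted p = 1.82e-05, edgeR).

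Its partner Col1a2, the α2 chain that joins a pair of α1 chains in the usual type I trimer, was close to absent. It had 28, 10 and 20 counts in control and 68, 76 and 70 counts after Circ-INSR siRNA, or 0.313 ± 0.152 and 0.995 ± 0.0188 CPM (SD, n = 3 each). It was called higher, with a log2 fold change of 1.67 (SE 0.30, edgeR adjusted p = 0.000522), but reached only about 1 CPM. Per kb, Col1a1 exceeded Col1a2 by 1120 times in control and by 227 times after Circ-INSR siRNA (geometric means). Part of both ratios comes from the divisor, 6563 annotated exonic bases for Col1a1 and 12426 for Col1a2. Their coding sequences are close in length, with 1453 and 1372 codons. In CPM without that divisor the control means were 168.7 and 0.313.

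Col3a1, the chain of type III collagen, and Col5a2, a type V chain that takes part in starting fibrils, lie 24614 bases apart on chromosome 1 on opposite strands. Col3a1 had 11.4, 12.4 and 12.7 CPM in control and 19.99, 23.55 and 23.05 CPM after Circ-INSR siRNA. Col5a2 had 3.32, 3.22 and 2.53 CPM in control and 7.83, 7.92 and 7.68 CPM after Circ-INSR siRNA. In both genes every treated library was above every control, with log2 fold changes of 0.87 (SE 0.08; edgeR adjusted p = 1.81e-06) and 1.37 (SE 0.11; edgeR adjusted p = 6.54e-07).

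Col2a1, the main fibrillar chain of cartilage, had 14.9, 14.5 and 13.8 CPM in control and 26.8, 25.7 and 25.4 CPM after Circ-INSR siRNA. The groups were well apart, with a log2 fold change of 0.85 (SE 0.06; edgeR adjusted p = 2.12e-07). Col27a1, a fibrillar chain with the shorter unbroken glycine run described above, went the other way, from 2.41, 2.68 and 2.21 to 1.56, 1.72 and 1.63 CPM. It fell by 0.57 (SE 0.13; edgeR adjusted p = 0.00281).

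Of the fibrillar chains that were not called, Col11a2 was the most abundant, with 36.6 ± 1.23 CPM in control and 33.7 ± 0.604 CPM after Circ-INSR siRNA. Its groups did not overlap and its log2 fold change was -0.12 (edgeR adjusted p = 0.0509); 6 alternatives, among them halved counts (0.0435), total-count scaling (0.0123) and leaving out control replicate 3 (0.0464), put it past the threshold. Col5a3 had a log2 fold change of -0.28 (edgeR adjusted p = 0.0836; 0.00636 without control replicate 3), and Col5a1 and Col11a1 reached at most 0.684 and 0.264 CPM in a library. Col24a1 had at most 11 counts in a library and was not tested.

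Of the type IV chains Col4a3, Col4a4, Col4a5 and Col4a6 fell and Col4a2 rose. The 6 genes lie as 3 head-to-head pairs, each transcribed outward from a common start region. The 2 stretches that follow are shown because the fold changes of each pair are compared across them; they are read on the plus strand of GRCm38.p6 from the promoter windows of NCBI RefSeq, and capitals mark a GC box (GGGCGG on either strand).
Between the annotated starts of Col4a4 and Col4a3, chr1:82586850-82586920, 71 bases: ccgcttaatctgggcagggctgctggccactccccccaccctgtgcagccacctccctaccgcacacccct
Shared by the first exons of Col4a1 and Col4a2, chr8:11312805-11312826, 22 bases: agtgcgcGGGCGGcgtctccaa

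The stretch between Col4a3 and Col4a4 held no GC box, and the overlap of Col4a1 and Col4a2 held 1. In windows from 250 bases before to 50 after a gene's start, the GC box was found on either strand in 35.7% of 32851 windows of all genes and in 60.5% of 38 windows of 35 collagen chains. The CCAAT box (CCAAT) was found in 37.4% and 34.2%, and the TATA box (TATAAA) in 13.6% and 13.2%. The windows of Col4a1, Col4a2, Col4a5 and Col4a6 held the GC box and that of Col4a4 did not, while Col4a3 had no window in the table. The third pair, Col4a5 and Col4a6 on the X chromosome, is 1308 bases apart.

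Col4a3 (ENSMUSG00000079465, mm10 chromosome 1, 82586921 to 82722059, plus strand) had 593.6, 586.0 and 453.4 CPM in control and 281.0, 296.6 and 289.4 CPM after Circ-INSR siRNA. Col4a4 (ENSMUSG00000067158, 82448423 to 82586849, minus strand) had 754.0, 716.3 and 557.7 CPM in control and 348.2, 360.8 and 371.1 CPM after Circ-INSR siRNA. Both fell in every treated library below every control, by 0.91 each (SE 0.10 and 0.11; edgeR adjusted p = 7.37e-05 and 0.000197). The log2 ratio of Col4a3 to Col4a4 per kb was -0.22 ± 0.0298 in control and -0.23 ± 0.0387 after Circ-INSR siRNA (SD, n = 3 each; exact permutation p = 0.8). On the opposite strand 563 exonic bases of Col4a3, out of 9967, are shared with the gene C430014B12Rik.

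Col4a1 and Col4a2, which together make the α1α1α2 trimer, did not move together. Col4a1 (ENSMUSG00000031502, mm10 chromosome 8, 11198423 to 11312826, minus strand) had 858.6, 798.4 and 675.2 CPM in control and 776.0, 761.6 and 761.7 CPM after Circ-INSR siRNA. The groups overlapped, and the log2 fold change was -0.02 (SE 0.07; edgeR adjusted p = 0.831). It was 0.06 without control replicate 1, 0.07 after removal of the length and GC trend, and -0.11 (adjusted p = 0.0133) without control replicate 3.

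Col4a2 (ENSMUSG00000031503, chromosome 8, 11312805 to 11449287, plus strand) had 405.8, 372.0 and 327.1 CPM in control and 522.6, 509.8 and 523.7 CPM after Circ-INSR siRNA. Every treated library was above every control, with a log2 fold change of 0.49 (SE 0.07; edgeR adjusted p = 6.25e-05). Per kb, Col4a1 exceeded Col4a2 by 1.87 times in control and by 1.31 times after Circ-INSR siRNA. In each library the log2 ratio was 0.91, 0.93 and 0.87 in control and 0.40, 0.41 and 0.37 after Circ-INSR siRNA. The difference of -0.51 was many times the SD within either group (0.0283 and 0.0202), and the exact permutation p was 0.1, the smallest possible (0.333 adjusted over 10 pairs).

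Col4a5, the α5 chain, had 506.5, 495.2 and 454.0 CPM in control and 430.5, 429.8 and 430.5 CPM after Circ-INSR siRNA, a fall by 0.17 (SE 0.05; edgeR adjusted p = 0.00683). Col4a6, the α6 chain, had 246.7, 239.2 and 190.4 CPM in control and 184.6, 189.5 and 191.3 CPM after Circ-INSR siRNA. Control replicate 3 lay among the Circ-INSR siRNA libraries, and its log2 fold change of -0.26 (SE 0.09; edgeR adjusted p = 0.0265) missed the threshold in 6 of 17 alternatives, 5 of which left out a library other than control replicate 3 (adjusted p up to 0.0904). The log2 ratio of Col4a5 to Col4a6 was 1.36 ± 0.122 in control and 1.44 ± 0.0268 after Circ-INSR siRNA (exact permutation p = 0.4).

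**Figure D3:**
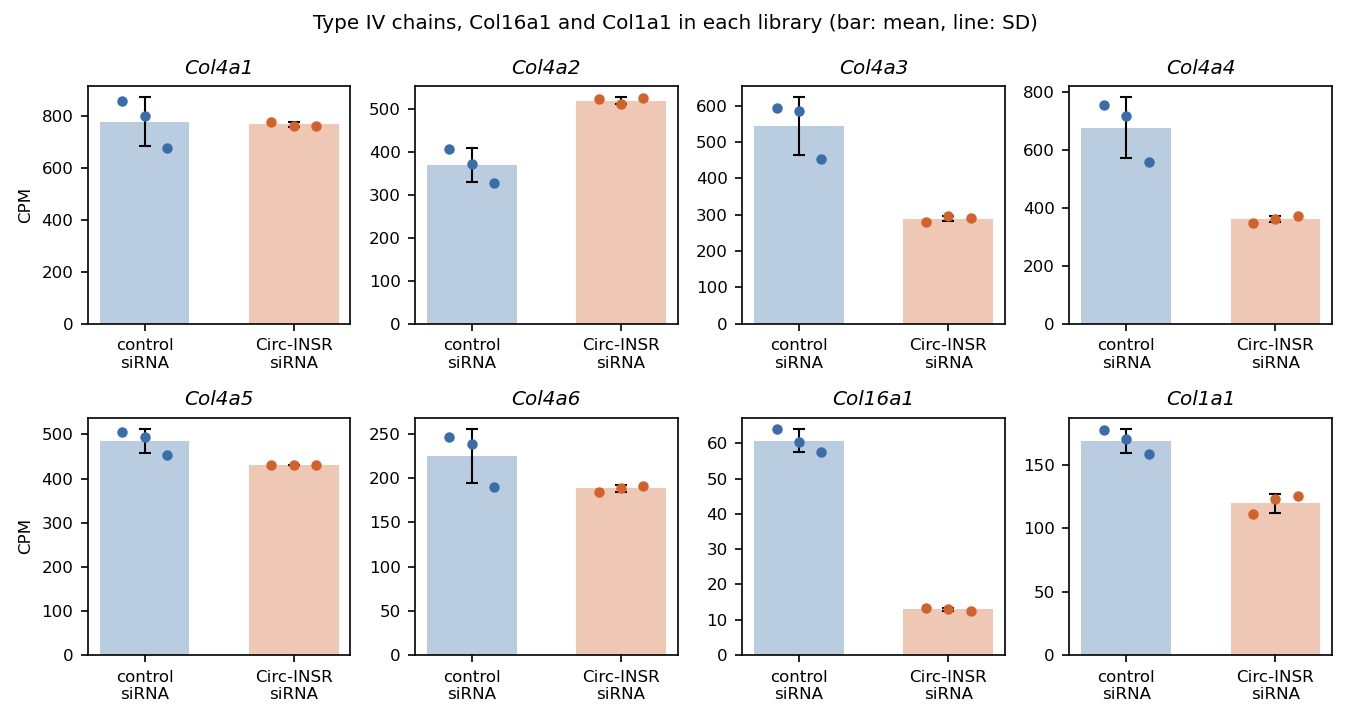
CPM of the 6 type IV chains, Col16a1 and Col1a1 in each library (points), with the mean (bar, from 0) and SD (line) of 3 libraries per group. Col4a3 and Col4a4 fell side by side, Col4a2 rose while Col4a1 overlapped between groups, and in each panel the lowest control point is replicate 3.

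Among the fibril-associated collagens with interrupted helices (FACIT), Col16a1 showed the largest change of any collagen chain. Its product, type XVI collagen, is a minor component that sits at fibrils and near basement membranes. Col16a1 (ENSMUSG00000040690, mm10 chromosome 4, 130047840 to 130099283, plus strand) had 64.1, 60.4 and 57.6 CPM in control and 13.31, 13.03 and 12.41 CPM after Circ-INSR siRNA. Its log2 fold change was -2.23 with an SE of 0.06 (adjusted p = 4.86e-10, edgeR), and the value stayed between -2.26 and -2.19 when any 1 library was left out.

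Col22a1, a FACIT chain of tissue junctions such as that of muscle and tendon, fell as well, from 2.83, 3.06 and 2.40 to 1.04, 0.947 and 0.751 CPM. Its log2 fold change was -1.60 (SE 0.16; edgeR adjusted p = 6.33e-06). Col14a1, which binds to the surface of fibrils, rose from 1.42, 1.73 and 1.69 to 3.39, 3.03 and 2.92 CPM, with a log2 fold change of 0.95 (SE 0.13; edgeR adjusted p = 6.57e-05).

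Col12a1, the most abundant FACIT chain and a relative of Col14a1, had 291.1, 274.9 and 203.0 CPM in control and 207.2, 212.4 and 198.8 CPM after Circ-INSR siRNA. Control replicate 3 lay among the treated libraries, and the log2 fold change of -0.31 (SE 0.13) had an edgeR adjusted p of 0.0786. Without that library it was -0.45 (adjusted p = 9.50e-09), and once the length and GC trend was removed -0.34 (adjusted p = 0.000282). Col20a1 had 1.65, 1.24 and 1.72 CPM in control and 1.04, 1.21 and 0.988 CPM after Circ-INSR siRNA, groups that were nearly in contact. It was called lower at -0.51 (SE 0.18; edgeR adjusted p = 0.0295) but not in 6 of 17 alternatives, with adjusted p up to 0.0952. It was -0.41 without control replicate 3 (adjusted p = 0.0899) and -0.40 after removal of the length and GC trend (adjusted p = 0.0687).

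Of type IX chains, Col9a3 had a log2 fold change of 0.13 (edgeR adjusted p = 0.156; 0.24 and 0.00600 after removal of the length and GC trend) and Col9a2 of -0.19 (edgeR adjusted p = 0.535). Col9a1 and Col19a1 were not tested, with at most 11 and 4 counts in a library.

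Type VI collagen forms beaded filaments close to cells from an α1, an α2 and an α3 chain. Col6a1 had 19.53, 18.45 and 17.02 CPM in control and 10.7, 9.37 and 11.4 CPM after Circ-INSR siRNA. Col6a2 had 11.98, 11.66 and 10.94 CPM in control and 6.73, 7.93 and 8.77 CPM after Circ-INSR siRNA. Both were lower in every treated library, by 0.80 (SE 0.08; edgeR adjusted p = 6.62e-06) and 0.56 (SE 0.09; edgeR adjusted p = 0.000320).

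Col6a3 was at 3.28 ± 0.943 and 2.64 ± 0.226 CPM (SD, n = 3 each), with a log2 fold change of -0.31 (edgeR adjusted p = 0.177). The controls had 4.15, 3.42 and 2.28 CPM, and without control replicate 3 the log2 fold change was -0.51 (adjusted p = 0.00296). Per kb, Col6a1 exceeded Col6a3 by 15.7 times in control and 10.8 times after Circ-INSR siRNA, with groups that did not overlap (exact permutation p = 0.1, the smallest possible). Of the newer type VI chains, Col6a6 was called higher at 0.88 (SE 0.28; edgeR adjusted p = 0.0188) from 0.327 to 0.601 CPM, a call that was lost without control replicate 2 (adjusted p = 0.0739), Circ-INSR siRNA replicate 2 (0.0729) or replicate 3 (0.0539). Col6a4 and Col6a5 were not called and reached at most 0.396 and 0.368 CPM; Col6a5 passed without Circ-INSR siRNA replicate 1 (adjusted p = 0.033).

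Both chains of the multiplexin family, found at basement membranes, and the anchoring fibril chain fell. Col18a1, the precursor of endostatin, had 74.6, 68.9 and 58.5 CPM in control and 49.1, 46.6 and 43.5 CPM after Circ-INSR siRNA, with no overlap between the groups. Its log2 fold change was -0.54 with an SE of 0.08 (adjusted p = 0.000237, edgeR). Col15a1, the other chain of that family, was called lower at -1.54 (SE 0.42; edgeR adjusted p = 0.00786) from 31, 22 and 33 to 13, 17 and 4 counts, and the value ran from -1.89 to -1.13 with 1 library left out. Col7a1, the chain of anchoring fibrils, went from 15.35, 14.55 and 13.87 to 9.93, 9.24 and 9.31 CPM, with a log2 fold change of -0.62 with an SE of 0.07 (adjusted p = 1.10e-05, edgeR).

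Col28a1, a chain with von Willebrand factor A domains known from peripheral nerve, had 2.495, 3.328 and 2.484 CPM in control and 7.27, 7.30 and 6.69 CPM after Circ-INSR siRNA. Every treated library was above every control, a log2 fold change of 1.35 (SE 0.12; edgeR adjusted p = 1.74e-06). The short network-forming chains Col8a1 and Col8a2, which are found in the sheet beneath vessel and corneal endothelium, were both called higher, at 0.26 (SE 0.08; edgeR adjusted p = 0.0105) and 0.81 (SE 0.22; edgeR adjusted p = 0.00672). Col8a1 went from 10.05 ± 0.105 to 12.1 ± 1.04 CPM and lost its call without Circ-INSR siRNA replicate 3 (adjusted p = 0.0549). Col8a2 went from 0.602 ± 0.0773 to 1.06 ± 0.182 CPM.

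Of the chains that span the cell membrane, Col13a1 went down from 1.19 ± 0.164 to 0.707 ± 0.118 CPM, with a log2 fold change of -0.75 with an SE of 0.20 (adjusted p = 0.00745, edgeR). Col17a1 and Col23a1 were not called and reached at most 0.835 and 0.565 CPM, although Col23a1 passed without control replicate 3 (adjusted p = 0.0395). Col26a1, which is not one of the membrane-spanning chains, was not called at a log2 fold change of -0.38 (edgeR adjusted p = 0.319). The network-forming chain Col10a1 had at most 14 counts in a library, and the membrane-spanning chain Col25a1 had 0 counts in all controls and 6, 2 and 0 after Circ-INSR siRNA. Neither was tested.

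Chains that share a trimer were compared within libraries, where scaling cancels. A deviation of a library that depends on gene length need not cancel between chains of unlike length. Col6a3 has 11963 exonic bases and Col6a1 4380, and their log2 ratio was -3.685, -3.880 and -4.352 in control replicates 1, 2 and 3. The part of length in the ratios was not tested. Of 10 pairs with both chains tested, the groups did not overlap for 3, namely Col1a1 to Col1a2, Col4a1 to Col4a2 and Col6a3 to Col6a1, with differences in log2 ratio of -2.30, -0.51 and 0.53. For each the exact permutation p was 0.1, the smallest that 3 against 3 can give, and 0.333 adjusted over the 10 pairs. The ratio of Col6a1 to Col6a2 differed by -0.24 and that of Col5a1 to Col5a2 by -1.28, with overlapping groups (exact permutation p = 0.3 and 0.2).

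**Figure D4:**
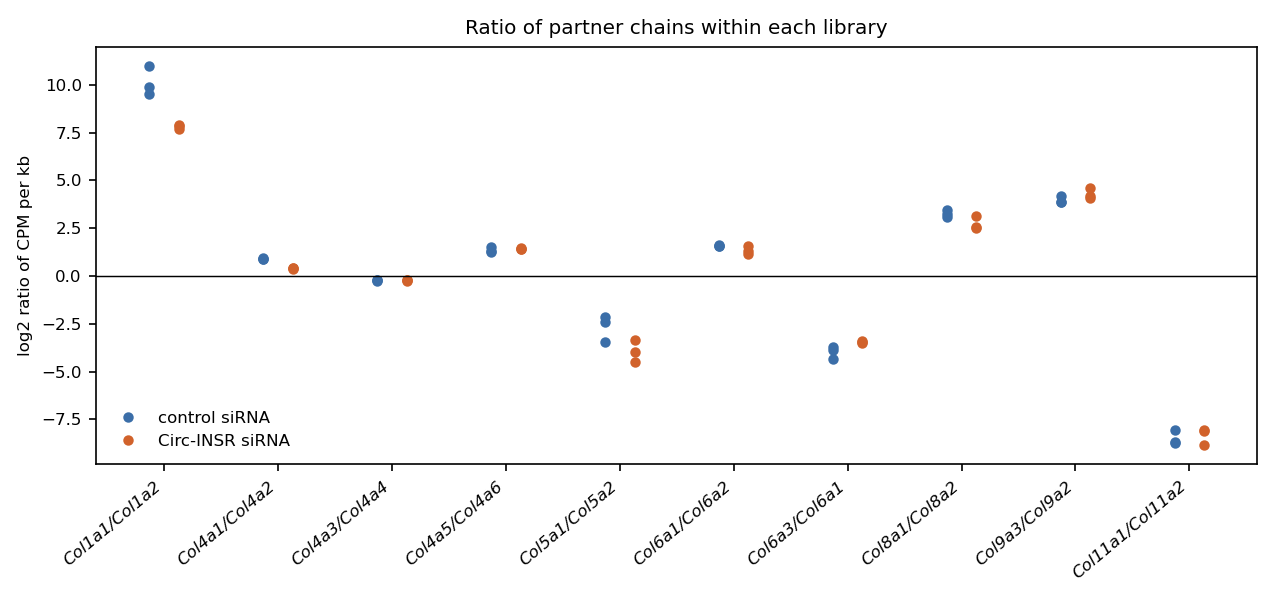
Log2 ratio of the CPM per kb of 2 chains of the same trimer in each library, for the 10 pairs with both chains tested; blue points are control siRNA and orange points Circ-INSR siRNA libraries. Col1a1 to Col1a2 lies between 9.50 and 10.99 in control and between 7.70 and 7.93 after Circ-INSR siRNA, and Col4a3 to Col4a4 stays between -0.27 and -0.19 in all 6 libraries.

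New chains are modified and folded in the endoplasmic reticulum, trimmed and cross-linked outside the cell, and bound or degraded there. A list of 47 genes for synthesis and processing had 42 tested members, of which 22 were higher (52.4%) and 9 lower (21.4%), against 28.5% of all genes in either direction. The median log2 fold change of the 42 was 0.19. Of hydroxylation and glycosylation genes 86.7% were called, against 57.0% of all genes. That share was 66.7% each for chaperones and secretion, propeptide cleavage, and cross-linking. Over all roles described here, 4 called genes (Lox, Itga2, Matn2 and Nid1) reached the level of the low-count filter in every library of only the group where they were higher; for Lox and Itga2 no library of the other group reached it, so these had to differ to be tested.

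Genes for hydroxylation and glycosylation of the chains rose in 11 of 15 cases and fell in 2. Ppib, the prolyl isomerase cyclophilin B that works with the prolyl 3-hydroxylase complex, rose from 53.55 ± 2.20 to 125.9 ± 2.32 CPM (log2 fold change 1.23, SE 0.05). P4ha3, a catalytic subunit of prolyl 4-hydroxylase, rose from 31.8 ± 0.792 to 60.3 ± 2.28 CPM, and P3h4, a partner in lysyl hydroxylation, from 20.8 ± 0.850 to 38.8 ± 2.04 CPM. Those that fell were Plod2, the lysyl hydroxylase of the chain ends (-0.69, SE 0.05), and P4ha2 (-0.36, SE 0.05). Adjusted p of these 5 genes was at most 4.22e-05 in the edgeR test.

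Of chaperones and secretion genes 9 of 15 rose and 1 fell. Sec13 and Sec23a, coat proteins of the vesicles that leave the endoplasmic reticulum, rose by 0.61 and 0.40 (SE 0.04 each), and the collagen chaperone gene Fkbp10 by 0.41 (SE 0.04). Serpinh1, the collagen-specific chaperone HSP47, was the most abundant of the list and rose by 0.18 (SE 0.04; edgeR adjusted p = 0.00105). Pdia3, a general disulfide isomerase, was the member that fell.

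Of propeptide cleavage genes 3 of 6 fell and 1 rose: Adamts2, the protease for the amino end, went from 18.6 ± 1.36 to 6.64 ± 0.350 CPM (log2 fold change -1.48, SE 0.08), and Bmp1, that for the carboxyl end, from 82.6 ± 3.79 to 46.8 ± 2.06 CPM (-0.82, SE 0.05). Pcolce, an enhancer of Bmp1, fell by 0.34 (SE 0.04), and Pcolce2 was the one that rose. Of cross-linking genes 3 of 6 fell and 1 was called higher. Loxl4 and Loxl3, lysyl oxidases, changed by -1.21 (SE 0.11) and -0.63 (SE 0.06), and the transglutaminase gene Tgm2 by -0.32 (SE 0.06), while Lox, the one called higher, had 0, 6 and 2 counts in control and 14, 12 and 12 after Circ-INSR siRNA. These 6 falls had adjusted p of at most 0.000809 (edgeR).

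Of 21 tested partners of fibrils and networks 9 rose and 7 fell (76.2% called, against 57.0% of all genes). Thbs1, which encodes thrombospondin 1, rose from 12.3 ± 0.744 to 41.3 ± 1.37 CPM and Fmod, encoding fibromodulin of fibril surfaces, from 1.78 ± 0.195 to 6.82 ± 0.453 CPM, whereas Fbln1, encoding fibulin 1, fell from 250.6 ± 6.80 to 135.5 ± 3.12 CPM. Of collagen receptors 2 of 10 rose and 4 fell (6 of 10 called, near the 57.0% of all genes). Adgrg1, a receptor for type III collagen, fell from 24.9 ± 1.42 to 15.8 ± 0.803 CPM, and Adgrg6, a receptor for type IV collagen, rose from 0.322 ± 0.0949 to 0.907 ± 0.0920 CPM. Itga2, the α2 integrin subunit, had 51, 41 and 41 counts in control and 4, 8 and 3 after Circ-INSR siRNA. Of degradation genes 3 of 11 rose and 4 fell (63.6% called, also near the share of all genes). Among those called were the cathepsin gene Ctsb (-0.80, SE 0.04), the collagenase gene Mmp14 (-0.67, SE 0.05) and Ctsl (0.66, SE 0.05). Apart from Itga2, adjusted p of these genes was at most 0.000395 (edgeR).

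**Figure D5:**
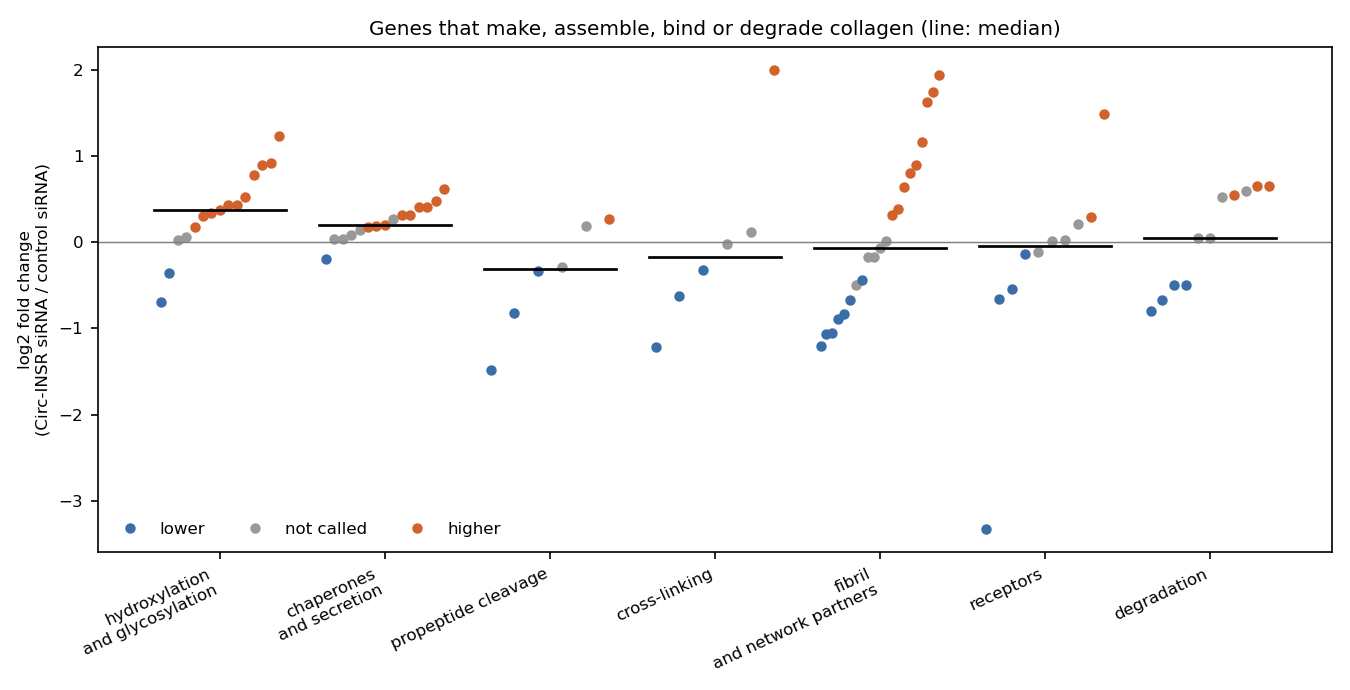
Log2 fold change (Circ-INSR siRNA over control siRNA) of the tested genes that make, assemble, bind or degrade collagen, by role, with orange and blue for genes called higher and lower by edgeR, grey for those not called and a black line at the median. Most points for hydroxylation and secretion lie above 0, and those for propeptide cleavage and cross-linking have medians of -0.31 and -0.17.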

How the data were processed

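Per the labels' protocols, poly(A)-selected RNA from 6 HL-1 samples was made into directional libraries. The authors deposited 1 table of raw gene counts for each library. The submitters' processing notes name mm10, STAR 2.5.0c and featureCounts 1.6.4 among their tools. For annotation release, strand setting and multi-mapping, nothing is given in the sources used here. Chains with exons under another gene (13 of 44) therefore have uncertain counts. Counts of 2 and 4 outnumbered counts of 1 and 3 in every table, as when both mates are counted.

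Symbols, positions and exonic lengths (all annotated exons joined) came from GENCODE M21, which matched 36308 of 38087 identifiers. Genes were kept with filterByExpr (minimum count 10, minimum total 15), scaled by TMM and tested with edgeR 4.0.16 in R 4.3.3 (robust quasi-likelihood F-test, group as the only term, Benjamini-Hochberg adjustment over 16666 genes, threshold 0.05). Each SE was derived from the F statistic (log2 fold change over its square root). The edgeR fit was tried on simulated counts with far fewer changed genes than were called here. That trial therefore does not cover changes in as many genes as in these data. Permutation tests used scipy 1.17.1.

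Alternatives were other scalings and filters, DESeq2 1.42.0, limma-voom, each library left out, the replicate number as a block, halved counts, and removal of a trend on length and GC content. Members and gene lists were chosen with earlier results of these data known. Per-library values are given for 21 chains: those with average log2 CPM of 0 or more that were either called at an absolute log2 fold change of 0.5 or more, or among the 10 highest per kb. For each role of the pathway up to 3 called genes with the smallest adjusted p are named. P4ha2, Pcolce2, Plod2, Serpinh1, Pdia3, Lox and the per-library values of Col1a2, Col6a3, Col15a1 and Col25a1 were added after their values were seen.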

Additional observations from a re-analysis of the deposited data

How the results depend on the processing

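Of the 25 collagen chains called, 21 kept direction and call in every alternative that tested them. The exceptions were Col4a6, Col20a1, Col6a6 and Col8a1, as given above. Of the 14 chains not called, 8 passed the threshold in at least 1 alternative. The sign of 3 uncalled chains near 0 turned. Col4a1 was 0.0736 with the length and GC trend removed, 0.0751 (adjusted p = 0.0429) when the replicate block was added to that, and 0.0579 without control replicate 1. Col5a1 was -0.0226 with total-count scaling, -0.335 without control replicate 3 and -0.340 without Circ-INSR siRNA replicate 2. Col11a1 was -0.0803 and -0.0719 without control replicates 2 and 3, and -0.0311 and -0.0990 without Circ-INSR siRNA replicates 1 and 2. With 1 library left out, Col4a1 ran from -0.1077 to 0.0579, Col5a1 from -0.3404 to 0.362 and Col11a1 from -0.099 to 0.3276; the cause was not tested. Counts of chains ran from 8 to 11 higher and from 13 to 19 lower with 1 library left out, the 19 without control replicate 3. They were 10 and 18 with the replicate block. Same-numbered libraries deviated together only weakly (correlations 0.0242, 0.0739 and 0.0356), though each was closest to its own number, so the fit without the block was kept. With counts halved, 36 chains could be tested, 10 higher and 16 lower; at full counts 5 of the 44 chains fell below the filter.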
